A study of Mus musculus with 42 samples.

Results

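HOXC10 binding was compared between day 3 and day 4 of motor neuron differentiation, as the sites kept from one day to the next, the sites gained at day 4 and the sites lost after day 3. The deposited event lists held 26859 HOXC10 events at day 3 and 22024 at day 4 on chromosomes 1 to 19 and X. The 10000 events with the most estimated reads were taken from each list. A top event was kept when the other day's top list had an event within 100 bp, a top day 4 event without one was gained, and a top day 3 event without one was lost. This gave 14607 sites, made up of 5362 kept, 4638 gained and 4607 lost, out of 1086685 events in the 21 lists of the series. Estimated reads are the reads that the event caller assigned to a site over all libraries of a group.

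The series measured binding by ChIP-seq, in which DNA crosslinked to a protein is recovered with an antibody and sequenced, in embryoid bodies grown from mouse embryonic stem cells. All cells of this comparison received retinoic acid and the Smoothened agonist SAG from day 0, and doxycycline on day 2 to switch on a tagged Hox transgene. Day 3 is 24 h and day 4 is 48 h after doxycycline. The transgene is a single copy at the HPRT locus on top of the cells' own genes, so the data describe an induced protein, and the files hold no expression with which to check the cells' identity. The day 3 group had 3 libraries, 1 from the iHoxc10.V5 line with an antibody to that tag and 2 from the iFlag.Hoxc10 line with an antibody to Flag. The day 4 group had 4 libraries, all from iFlag.Hoxc10 with the antibody to Flag.

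Hox proteins are homeodomain transcription factors that give cells their place along the head to tail axis. HOXC10 is a posterior member, made in the lumbar spinal cord, where Hox genes set which motor columns and muscle-specific pools form. Posterior Hox proteins favour sites with a TTTAT core, more anterior ones favour TAAT, and the PBX and MEIS homeodomain proteins bind DNA beside them as cofactors.

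Depth differed between the days and between the libraries. The day 3 libraries held 5036342 to 21837512 reads, and the event caller counted 0.073 ± 0.0771 (SD, n = 3) of the reads as signal, with 80.9% of the signal reads coming from 1 library. The day 4 libraries held 22825820 to 27122371 reads, with a signal fraction of 0.0513 ± 0.00403 (SD, n = 4). The control held 20590685 reads at day 3 and 4722105 at day 4, and each also served other factors of its day. The labels name as controls an anti-Flag precipitation from iHoxc10.V5 cells at day 3 and an input from iFlag.Hoxc8 cells at day 4, so the controls differed in kind as well as in depth, although the lists give only the control's number of reads. No sequencing run named in the labels held HOXC10 libraries of both days, so day, run, depth and control cannot be told apart. Each list pools its replicates, so all intervals below are 95% intervals for counts of sites (Wilson for a share, Newcombe for a difference), cover counting error only, and say nothing about the spread between libraries.

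The sites below stand for the 3 classes, each as 101 bases around the event on the + strand of GRCm38. Among sites whose window meets no annotated exon, they are the strongest site of each class with TTTAT and the strongest without it, then the strongest gained and lost sites with TTTAT and no event of the other day within 1 kb (Eps8 and Stk39) and the strongest such gained promoter site without TTTAT (Sprtn). Capitals mark TTTAT on either strand, or TAAT on either strand in windows that lack TTTAT.
Hoxb4, kept, chr11:96319327-96319427: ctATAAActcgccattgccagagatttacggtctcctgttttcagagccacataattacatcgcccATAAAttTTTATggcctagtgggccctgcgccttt
Tent4a, kept, chr13:69429829-69429929: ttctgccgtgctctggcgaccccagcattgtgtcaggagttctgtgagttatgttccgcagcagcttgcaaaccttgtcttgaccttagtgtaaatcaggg
Msc, gained, chr1:14570579-14570679: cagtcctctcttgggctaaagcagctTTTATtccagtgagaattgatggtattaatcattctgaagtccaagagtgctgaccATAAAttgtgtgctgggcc
Bach2, gained, chr4:32531350-32531450: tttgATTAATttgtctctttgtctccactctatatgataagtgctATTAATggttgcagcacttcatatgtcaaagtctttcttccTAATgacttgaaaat
Eps8, gained, chr6:137520042-137520142: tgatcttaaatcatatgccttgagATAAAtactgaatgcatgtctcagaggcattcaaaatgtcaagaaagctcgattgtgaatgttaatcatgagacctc
Sprtn, gained at a promoter, chr8:124897758-124897858: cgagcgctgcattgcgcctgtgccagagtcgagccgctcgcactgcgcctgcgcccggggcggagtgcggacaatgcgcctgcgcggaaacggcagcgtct
Psmd7, lost, chr8:107603340-107603440: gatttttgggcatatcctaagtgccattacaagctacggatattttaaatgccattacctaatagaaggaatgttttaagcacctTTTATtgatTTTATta
Itga1, lost, chr13:115653621-115653721: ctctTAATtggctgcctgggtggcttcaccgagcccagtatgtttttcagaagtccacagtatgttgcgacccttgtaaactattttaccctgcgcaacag
Stk39, lost, chr2:68404874-68404974: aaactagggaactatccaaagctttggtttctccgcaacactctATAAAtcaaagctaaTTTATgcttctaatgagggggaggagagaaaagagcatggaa

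Of the top day 4 events, 5362 of 10000 (53.6%, 52.6 to 54.6) had a top day 3 event within 100 bp, and of the top day 3 events 5393 of 10000 (53.9%, 53 to 54.9) had a top day 4 event. The counts differ because a few events share a partner. When the day 4 events were moved by 10 kb, 28 of 10000 (0.28%) met a day 3 top event. Most kept pairs lay at nearly the same base, with a median distance of 12 bp, and 76.3% of the day 4 events lay within 25 bp of their partner. Just inside the limit, 21 kept day 4 events had their partner 91 to 100 bp away, and just outside it 21 gained events had a top day 3 event over 100 and up to 110 bp away.

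The share of kept sites fell with rank on both days. Among the 1000 strongest day 4 events 92.1% were kept (90.3 to 93.6), and among the weakest 1000 of the top list 32.9% were kept (30.1 to 35.9). The same shares at day 3 were 94.8% (93.2 to 96) and 25.6% (23 to 28.4). With a partner at any rank of the other day, these shares were 98.6% and 55.9% at day 4 and 97.1% and 54% at day 3. Kept day 4 events had a median of 204.7 estimated reads and gained ones 153.2, and the day 3 medians were 206.8 for kept and 137.8 for lost. The classes were cut on these same reads, so the rule itself favours this order. The rank limit fell at 124.6 estimated reads at day 4 and 104.9 at day 3, with the same value just inside and just outside each list.

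**Figure D1:**
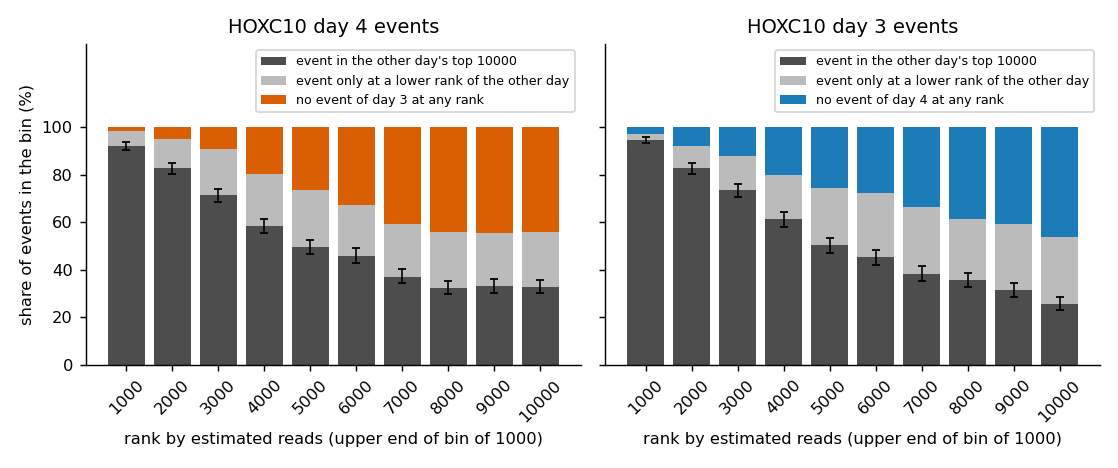
HOXC10 top events by bin of 1000 ranks (x axis; day 4 left, day 3 right) as percent of the bin (y axis), with kept events dark (95% Wilson intervals), events whose partner had a lower rank light grey, and events with no partner coloured. The kept share falls from 92.1% to 32.9% at day 4 and from 94.8% to 25.6% at day 3. Part of this follows from the rule, which asks for a partner in the other day's top list.

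The top-list limit shaped gained and lost sites alike. Of the gained sites, 1952 (42.1%, 40.7 to 43.5) had a day 3 event at a lower rank, and 2686 (57.9%, 56.5 to 59.3) had no day 3 event within 100 bp at any rank. Of the lost sites, 2059 (44.7%, 43.3 to 46.1) had a lower-ranked day 4 event and 2548 (55.3%, 53.9 to 56.7) had none. Against the full list of the other day, 73.1% of the top day 4 and 74.5% of the top day 3 events had a partner. The 100 bp limit mattered more for strong lost sites: 23 of the 100 strongest lost sites had a day 4 event over 100 and up to 200 bp away, against 4 of the 100 strongest gained sites with a day 3 event at that distance. At a kept site the estimated reads at day 4 and day 3 had a median log2 ratio of 0.02 (quartiles -0.40 and 0.42), with 391 sites at least 2 times higher at day 4 and 295 at least 2 times higher at day 3. The pooled libraries of day 4 held 2.18 times the reads of day 3, which this ratio of unscaled reads does not correct. Across kept sites the ranks of the days had a Spearman rho of 0.505. Kept sites had to stand in the top list on both days, which leaves out sites that fell below it on either day. The ratio, its counts and rho therefore describe a set selected on the same reads. The kept sites also share their libraries and are not independent.

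The strongest kept sites were led by the Hox clusters themselves and by Hox-related genes. The strongest day 3 event of all lay in an intron of Hoxc4, a cervical Hox gene, with 2063.6 estimated reads at day 3 and 1571.9, rank 6, at day 4. The Hoxb4 site printed above had 1345.2 at day 3 and 1162.1 at day 4, and a site near the start of Hoxc5 had 1052.5 and 2108.2. Other sites among the 10 strongest kept ones lay in an intron of Aldh1a2, the enzyme that makes retinoic acid in the embryo (1310.5 and 1389.7), and of Meis2, a HOX cofactor (1092.5 and 1381.3). A further site lay 36 bp from the start of Hdx on the X chromosome, a divergent homeobox gene (1407.4 and 1749.2). The Tent4a site, 103 kb from the start of that gene, held neither TTTAT nor TAAT and had 1824.7 estimated reads at day 3 and 1759.3 at day 4. The top event of day 4 lay 5.23 kb from the start of Gpr84, on chromosome 15 as the Hoxc cluster is, with 3164.7 estimated reads at day 4 against 715.8, rank 117, at day 3.

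The strongest gained sites were mostly weak day 3 sites that moved up the ranking. The site 184 kb from the start of Msc had 688 estimated reads at day 4 (rank 116) and 63.7 at day 3 (rank 19568). The sites of Prex1, a Rac exchange factor, and of Bach2, a transcription factor, had 663.5 and 591.1 at day 4 against 73.2 and 89.5 at day 3. Of the 10 strongest gained sites, that in an intron of Eps8, 332 bp from its start, was the one with no day 3 event near it. Its 492.6 estimated reads at day 4 had their nearest day 3 event 331295 bp away. The other 9 were ranked between 10692 and 19568 at day 3. Among the strongest lost sites, several had a day 4 event just beyond the 100 bp limit. The Psmd7 site, printed above, had 666.7 estimated reads at day 3 and its nearest day 4 event was 131 bp away, and those of 3100002H09Rik, Fam19a5 and 1810010D01Rik had day 4 events 156, 110 and 111 bp away. The Itga1 site, 552 kb from the start of an integrin gene, had 623.6 at day 3 and 96.7 at day 4 at an event 81 bp away. The Stk39 site, in an intron of a kinase gene, had 521.6 estimated reads at day 3 and no day 4 event within 55197 bp.

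Position set the gained class apart from the others. Of the gained sites 38.7% (37.3 to 40.1) lay within 1 kb of the start of a protein-coding gene, called a promoter here, against 4.85% of kept sites (4.31 to 5.46) and 3.56% of lost sites (3.06 to 4.13). The same sites moved by 10 kb gave 7.27% for gained, 2.56% for kept and 2.84% for lost. Gained exceeded lost by 35.1 percentage points (33.6 to 36.6). Lost sites lay 1.29 points below kept ones (-2.07 to -0.498), a difference whose interval reached 0 when events were ranked by q-value (-0.208 points, -0.977 to 0.569) or needed a log2 fold over control of at least 3 (0.153 points, -0.634 to 0.937). The promoter share of gained sites depended on where in the ranking they stood: it was 8.8% (5.88 to 13) among gained sites of ranks 1 to 2000, 26% (22.9 to 29.3) in the next 2000 and 42.8% (40.1 to 45.4) in the last 2000. With only the top 5000 of each list it was 20.2%, against 3.2% for lost. Lost sites stayed between 1.79% and 4.37% in every rank bin.

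The promoter sites came from the gained sites without any day 3 event. Of these, 1633 of 2686 (60.8%) lay at promoters, against 160 of the 1952 gained sites with a lower-ranked day 3 event and 3.38% of lost sites without a day 4 event. Their median distance to a start site was 0.227 kb, against 42.5 kb for gained sites with a lower-ranked day 3 event. Medians were 9.14 kb for all gained, 53.0 kb for kept and 60.1 kb for lost sites. Gained sites also lay more often in exons, 22.8% against 2.89% of kept and 2.08% of lost, and less often in introns, 33% against 45.8% and 44%. Sites between 50 and 500 kb from any start made up 26.6% of gained, 44.7% of kept and 45.3% of lost sites.

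**Figure D2:**
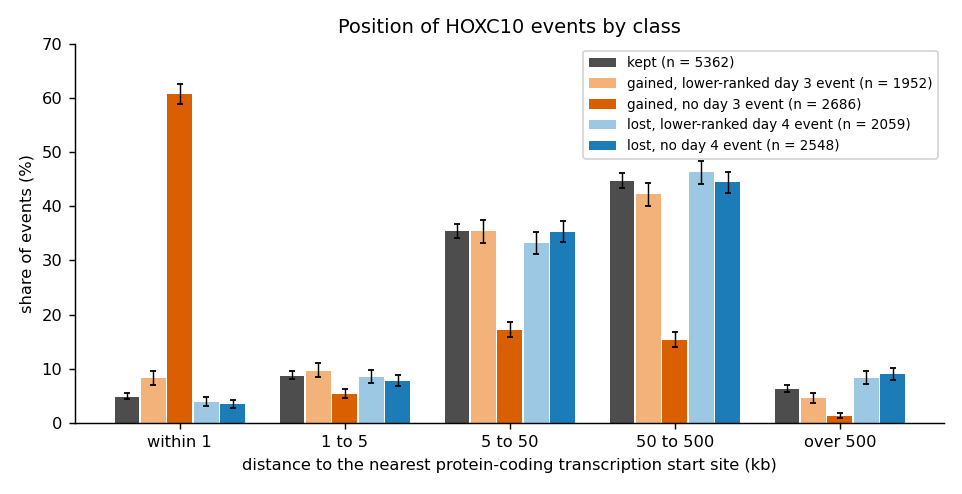
Distance from HOXC10 sites to the nearest start of a protein-coding gene (x axis, kb in bins; y axis, percent of the class), with gained and lost sites divided by whether the other day had a lower-ranked event, and 95% Wilson intervals. Gained sites with no day 3 event stand out within 1 kb at 60.8%, and no other class exceeds 8.2% there.

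The 1793 gained promoter sites fell at 1732 genes and looked unlike the other promoter sites. Their median position was 4 bp downstream of the start, and 55.7% lay within 100 bp of it, against 19.6% of the 260 kept and 9.76% of the 164 lost promoter sites. Their 101 bases were 61.8% GC, close to the 59.1% at the 5′ ends of all 21755 protein-coding genes, while kept promoter sites had 45.4% and lost ones 43.7%. TTTAT was present in 9.76% of them, against 14.1% of all gene 5′ ends, 55.8% of kept and 48.8% of lost promoter sites. The Sprtn site printed above is the strongest of these without TTTAT, a day 3 event within 1 kb or an exon in its window, with 293.7 estimated reads at day 4, rank 1497, and lies 78 bp from the start of that gene, which encodes a protease of DNA repair. By contrast, the strongest kept promoter sites lay at Hoxc5, Hdx, Hoxc4 and Hoxa4, and that of Meis2, a HOX cofactor, had 674.3 estimated reads at day 4 and 675.3 at day 3.

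The gained promoter sites also had a low deposited fold over the control, at sites with very few control reads. Their median of estimated reads was 148.8, near the 156.9 of the gained sites away from promoters. Their median deposited log2 fold over control was 2.54, against 5.05 at the gained sites away from promoters and 4.96 at kept promoter sites, with a median of 1.1 control reads against 0.8 and 0.9. Between gained sites at and away from promoters, median estimated and control reads were thus close while the folds were not. The reason was not tested. Of the gained promoter sites 847 of 1793 (47.2%) passed a log2 fold of 3, and the gained promoter share was 31.4% when only such events were ranked. Immunoprecipitations of PBX at day 4, 1 library each, held few events, 848 in iHoxc10 and 1164 in iHoxc9 cells, of which 79% and 82.6% lay at promoters. Their signal fractions were 0.008 and 0.009, and the paper describes the signal of its PBX antibody as weak. Whether these events mark PBX binding was not tested. Of the gained promoter sites 16.3% and 20.3% had a PBX event within 100 bp in iHoxc10 and iHoxc9 cells, against 1.15% and 1.54% of kept promoter sites and 0 of 164 lost ones. Depth and the kind of control moved with the day, and their part in the gained promoter sites was not tested.

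The same step from day 3 to day 4 was available for HOXC9 and HOXC6, 2 other transgenes with Flag libraries and the same controls. With the same rule, the promoter shares of kept, gained and lost sites were 2.5%, 2.79% and 2.14% for HOXC9 and 3.18%, 3.67% and 3.54% for HOXC6. Over the whole top lists the promoter share of HOXC10 was 4.25% at day 3 and 20.5% at day 4, while that of HOXC9 was 2.4% and 2.61% and that of HOXC6 3.34% and 3.31%. The day 4 lists that used the same control thus ranged from these low shares to those of PBX, 79% and 82.6%. The day 4 lists were unlike in other ways. HOXC9 and HOXC6 had pooled depths of 45564305 and 32458944 reads against 98137734 for HOXC10, signal fractions per library of 0.14 to 0.188 and 0.304 to 0.311 against 0.047 to 0.056, and 44020 and 69285 events against 22024. The same 10000 events therefore reached farther down the HOXC10 list, in which the promoter share of gained sites was higher at lower ranks, and the part of these differences was not tested. Of the gained HOXC10 promoter sites, 30.3% had a HOXC9 event at day 4 and 9.59% at day 3, and 20.1% had a HOXC6 event at day 4.

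Away from promoters there were 5102 kept, 2845 gained and 4443 lost sites, and these classes were still unlike. Mean GC within 50 bp of the event was 43.8% at kept, 46.2% at gained and 41.4% at lost sites. A log2 fold over control of 3 was passed by 69.8% of gained and 99.3% of lost sites. Gained and lost sites also came from different days, with different depth and control. The part of base composition, depth and control in the motif shares was not tested. Each motif was searched on both strands within 50 bp of the event and in windows of the same length 1 kb to each side. TTTAT was in 54.7% of kept, 47% of gained and 53.7% of lost sites, against 32.2%, 30.1% and 33.6% of their flanks. TAAT was in 71.9%, 60.9% and 75.7%, and the joined PBX and Hox form TGATTTAT in 7.49%, 6.71% and 6.19%, against 0.58% to 0.709% of flanks. TGACAG, the MEIS form, was in 12.9%, 12.8% and 11.5%. Spellings that contain each other are counted under both: TGATTTAT holds TTTAT, and TAATTA holds TAAT.

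The motif that separated the classes most was ATCAAT, a spelling of the core bound by Onecut homeodomain factors of motor neurons. It was in 28.3% of lost, 18.1% of kept and 9.77% of gained sites away from promoters, against 4.32% to 5.42% of their flanks. Gained sites lay 18.5 points below lost ones (-20.2 to -16.8), and lost sites 8.51 to 11.9 points above kept ones. CAGATG, an E-box form used by neural basic helix-loop-helix factors, had the same order, with 18.1% of lost, 15.4% of kept and 10.8% of gained sites, and TAATTA did too, with 9.3%, 7.06% and 4.82%. ACAAAG, a form bound by SOX factors, had the opposite order, 16.2% of gained, 13.7% of kept and 12.6% of lost sites, with gained 3.59 points above lost (1.94 to 5.27). The lost sites of the other factors were alike in ATCAAT. For HOXC9 it was in 20.3% of lost, 12.4% of kept and 9.87% of gained sites, and for HOXC6 in 23.9%, 15.9% and 12.9%, each over whole classes. These are matches of letters in a window, and no occupancy of another factor was measured by them.

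**Figure D3:**
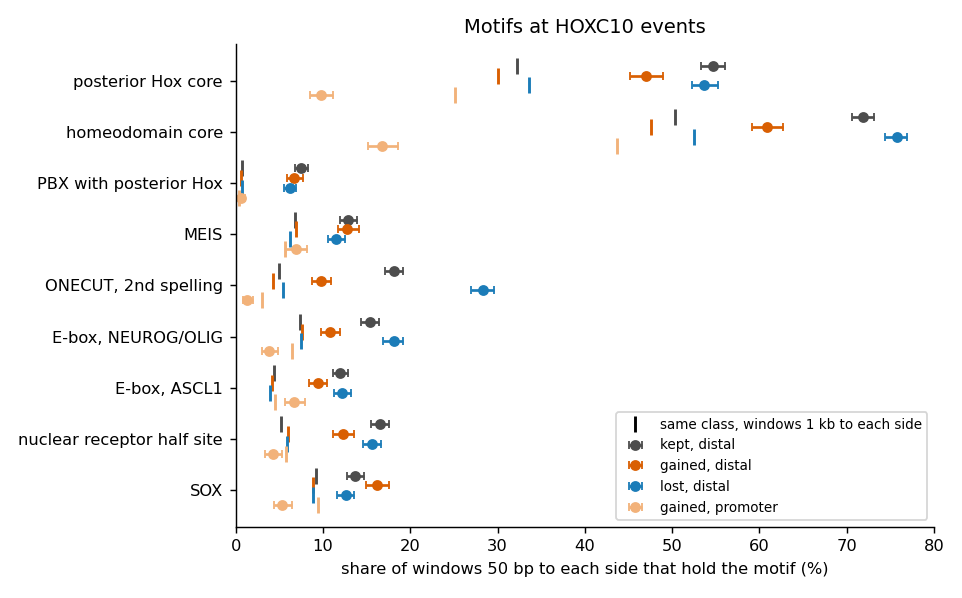
Share of windows of 101 bases with each motif (x axis, percent) at kept, gained and lost HOXC10 sites away from promoters and at gained promoter sites, as points with 95% Wilson intervals, with a bar for the same class 1 kb to each side. The posterior Hox core (TTTAT) and homeodomain core (TAAT) are frequent at all sites away from promoters, while the motif named ONECUT, 2nd spelling (ATCAAT), runs from 28.3% of lost to 9.77% of gained sites.

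Most HOXC10 sites of every class away from promoters were also events of HOXC9, the neighbouring paralogue used in thoracic segments. A HOXC9 day 3 event lay within 100 bp of 97.9% of kept, 91.9% of lost and 78.2% of gained sites. At day 4 the shares were 92.3% of kept, 59.6% of lost and 80.6% of gained sites, so gained sites stood 21 points above lost ones (18.9 to 23). These full HOXC9 lists held 74067 events at day 3 and 44020 at day 4, so shares of different days are not on a like basis. Over whole classes, promoters included, HOXC9 day 4 shares were 92.1% of kept, 61.2% of gained and 59.8% of lost sites, a difference of 1.41 points (-0.581 to 3.4) whose sign changed with the ranks used. The remaining shares are over whole classes too, promoters included, with both lists of a factor cut to the same length. With HOXC9 lists of 44020 events, 22.4% of gained HOXC10 sites had a HOXC9 event at day 4 alone and 2.31% at day 3 alone. For lost HOXC10 sites these shares were 3.32% and 25.9%, and for kept sites 3.58% and 5.33%. HOXC6 lists of 17898 events gave 11.3% and 4.76% for gained, 7.34% and 11% for lost, and 11.9% and 4.44% for kept sites. The HOXC10 and HOXC9 lists of a day share their control, and some of their libraries share a sequencing run.

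MEIS in iHoxc10.V5 cells at day 3, from 1 library, had an event at 57.8% of kept, 35.1% of gained and 24.6% of lost sites away from promoters. Gained sites thus stood 10.6 points above lost ones (8.43 to 12.8), although MEIS was measured on the day at which the lost sites were bound. HOXD9 at day 3 had an event at 96% of kept, 76.7% of gained and 90.5% of lost sites. PBX in iHoxc10 cells at day 4 had one at 0.137%, 1.62% and 0.045%, the few events of that list lying mostly at promoters.

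**Figure D4:**
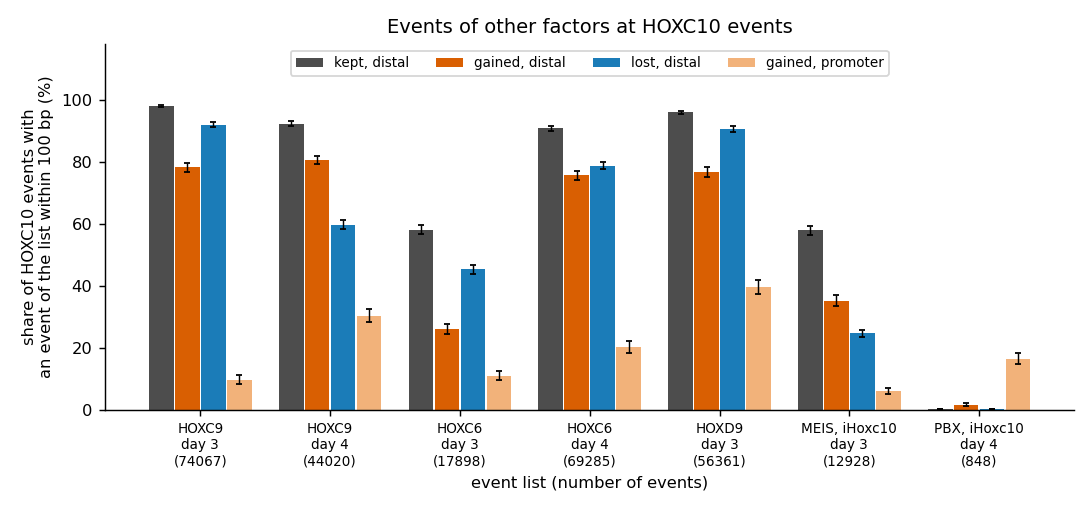
Share of kept, gained and lost HOXC10 sites away from promoters, and of gained promoter sites, with an event of another list within 100 bp (y axis, percent; bars with 95% Wilson intervals), by list with its number of events (x axis). HOXC9 covers 78.2% or more of the classes away from promoters at day 3, and at day 4 covers 80.6% of gained against 59.6% of lost sites.

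Sites of a class lay near each other. Another kept site lay within 10 kb of 28.1% of kept sites, another lost site within 10 kb of 20.6% of lost sites and another gained site within 10 kb of 14.2% of gained sites, against 6.14%, 4.6% and 5.69% after a move of 500 kb. Lost sites lay near kept ones more often than gained sites did, 21.4% against 13.9%. By chromosome, the X chromosome, which is 6.49% of the length searched, held 110 top events at day 3 and 43 at day 4. Of its day 3 events 79 (71.8%) were lost, against 40.1% to 50.7% on each autosome, and of its day 4 events 12 (27.9%) were gained, against 41.2% to 58.8%. The highest gained share was on chromosome 17.

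Each site was assigned to the protein-coding gene with the nearest start. Kept sites fell to 2569 of 21755 genes (11.8%), gained sites to 3374 (15.5%) and lost sites to 2411 (11.1%). Gained and lost sites met at 1021 genes, leaving 2353 with gained and no lost site and 1390 with lost and no gained site. The gene with the most sites of every class was Zfp608, with 37 kept, 18 gained and 28 lost. Robo2, a receptor for the axon guidance cue Slit, had 21 kept, 2 gained and 20 lost sites, and Auts2 had 29, 6 and 19. Dach1, a transcription cofactor of limb and neural development, had 16, 2 and 16. Gained sites outnumbered lost ones at Lrmda, with 18 kept, 10 gained and 4 lost sites, at Myt1l, a neuronal zinc finger gene, with 1, 8 and 2, and at Stx8, with 1, 7 and 1. Several of these genes are long, with 1110 kb for Auts2, 1040 kb for Lrmda and 520 kb for Robo2, and a nearest start is a label, not evidence of regulation.

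Over all protein-coding genes, gained sites made up 50.2% of gained and lost sites together. That share includes 1793 gained and 164 lost promoter sites. Away from promoters there were 2845 gained and 4443 lost sites, and the gene lists were not divided in this way. Among the 15 gene lists, those of motor neuron identity, motor columns and pools, interneurons, axon guidance, cell adhesion and ventral progenitors held more lost than gained sites. Gained sites made up 20.8% (interneuron) to 34% (ventral progenitor) of both in each of these lists. The share was 44.7% in the neuronal maturation list and 68.3% in the neural progenitor list. The 17 motor neuron identity genes had 43 kept, 17 gained and 52 lost sites, with Isl1, a LIM factor that specifies motor neurons, at 3 kept, 2 gained and 10 lost and Nefm, a neurofilament gene, at 7, 2 and 9. The 20 genes of motor columns and pools had 69, 34 and 67, among them Foxp1, the HOX partner of limb-level columns, at 9, 7 and 7 and Epha4, a guidance receptor of limb motor axons, at 8, 5 and 9. The 44 axon guidance genes had 139, 65 and 127 sites and the 36 cell adhesion genes 94, 53 and 142, with Cdh2 at 6, 6 and 12, Tenm4 at 7, 4 and 13 and Pcdh9 at 3, 4 and 12. The 22 spinal interneuron genes had 25, 5 and 19, and the 21 ventral progenitor genes 42, 18 and 35, of which Irx3 had 7, 0 and 10. The order of gained and lost depended on the assignment for a pair of these lists. With all genes whose body lay within 50 kb of a site, 11 motor neuron identity genes (64.7%) had a gained and 8 (47.1%) a lost site. For axon guidance genes these counts were 28 (63.6%) and 26 (59.1%). Over all protein-coding genes the same assignment gave 32.7% with a gained and 13.9% with a lost site, so gained sites were ahead there as well.

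In the neural progenitor and Hox lists gained sites outnumbered lost ones, and in the cofactor, retinoic acid and maturation lists the lost sites were ahead by less than in the lists above. The 23 neural progenitor genes had 34 kept, 28 gained and 13 lost sites, and 60.9% of them had a gained site against 15.5% of all protein-coding genes. Their shares with a kept or lost site were above those of all genes too, 43.5% against 11.8% and 39.1% against 11.1%. In that list Sox2, a factor of neural progenitors, had 10 kept, 6 gained and 3 lost sites, Sox9 had 10, 4 and 2, and Hes1, a Notch target that holds cells as progenitors, had 0, 4 and 2. The 39 Hox genes had 56 kept, 24 gained and 12 lost sites, with Hoxb3 at 6, 3 and 1 and Hoxd3 at 8, 2 and 3. The 9 HOX cofactor genes had 60, 20 and 29, of which Meis1 had 21, 4 and 9, Meis2 10, 2 and 11, and Pbx3 12, 6 and 3. Retinoic acid pathway genes, 20 in number, had 62, 21 and 26, led by the nuclear receptor gene Nr2f1 at 22, 8 and 6. The 32 neuronal maturation genes had 62, 42 and 52. Counted as genes with a site, gained led lost in the maturation (62.5% against 53.1%) and retinoic acid lists (40% against 35%). The cofactor list had 55.6% for both. With gene bodies within 50 kb, gained led in the maturation (68.8% against 46.9%), retinoic acid (45% against 25%) and cofactor lists (77.8% against 55.6%). It also led over all protein-coding genes by that assignment.

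The remaining lists, of other lineages and of housekeeping genes, were mixed. The 20 mesoderm and endoderm genes had 2 kept, 1 gained and 5 lost, and the 14 glial and neural crest genes had 4, 2 and 1. The 18 pluripotency genes had 16, 11 and 5, most of them at Sox2, which is in the neural progenitor list too. The 18 housekeeping genes had 0 kept, 5 gained and 1 lost site, with gained sites at the promoters of Actb, Gapdh and Polr2a among them. Shares of genes with a site, 11.8% for kept, 15.5% for gained and 11.1% for lost over all genes, were exceeded in all classes by most neural lists, whose median gene length ran from 8.9 kb (neural progenitor) to 294 kb (cell adhesion) against 17.4 kb over all genes. They were also exceeded for kept, gained and lost sites by the pluripotency genes (27.8%, 27.8% and 16.7%), for gained sites by the housekeeping genes (27.8%) and for lost sites by the mesoderm and endoderm genes (20%).

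**Figure D5:**
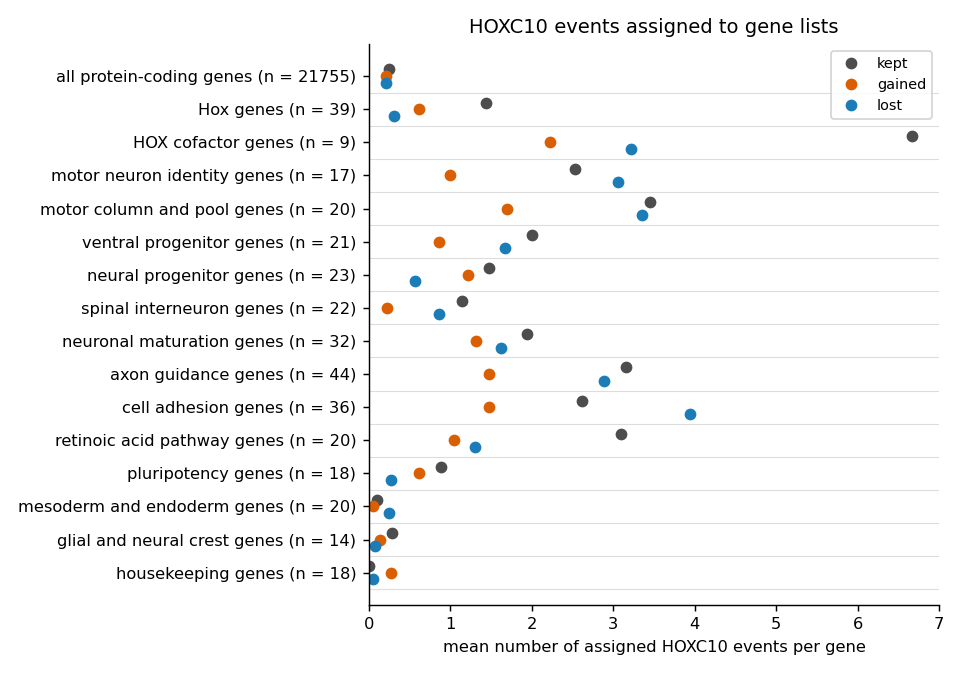
Mean number of kept, gained and lost HOXC10 sites assigned per gene (x axis), as 1 point per class for each gene list and for all 21755 protein-coding genes. Cell adhesion, motor neuron identity and interneuron genes have more lost than gained sites, and neural progenitor, Hox, pluripotency and housekeeping genes have more gained than lost sites.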

How the data were processed

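ChIP-seq was performed in embryoid bodies of 42 samples, of which 3 day 3 and 4 day 4 HOXC10 libraries carry this comparison. As the study's methods state, the authors aligned reads to mm10 with Bowtie 1.0.1, keeping single best hits, and called binding events with MultiGPS over the pooled libraries of a group against a control. The deposited estimated counts are the reads assigned to each event in ChIP and control, the deposited log2 fold is ChIP over scaled control, and the deposited score is the log2 q-value of the event. Columns in which the authors compared groups with edgeR 3.22.5 (log2 fold, CPM and log2 p-value) were not used, nor were the deposited position tracks, which list the same pooled events with a capped score and hold no reads.

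Events on chromosomes 1 to 19 and X were ranked by estimated count, and the top 10000 per day were matched within 100 bp. Columns were taken from the lists of the 21 groups. Gene starts, exons and introns came from GENCODE release 21 for mouse and bases from the RefSeq GRCm38 assembly, the same build as mm10. All 22024 deposited 8-base sequences of the day 4 list were found within 100 bp of their event, and the day 3 list carried none. Windows were printed only where they overlap no annotated exon and are not on chromosome 18. Motifs were matched as letters on both strands within 50 bp. Shares have Wilson and their differences Newcombe 95% intervals, computed with Python 3.11.15, numpy 2.4.6, pandas 2.3.3 and scipy 1.17.1, and the scripts were tested on simulated lists. No test across genes and no p-value was computed, because no event value per replicate was used.

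The classes, gene lists and motifs were chosen with earlier results of these data known. Named genes are those of the 10 strongest sites per class (kept sites ordered by the poorer of their ranks), of the 8 genes with most sites per class and, within each list, of the 4 with most gained or lost sites. Gpr84, Sprtn and the strongest kept promoter sites were chosen after their values were seen. Samples were grouped by their titles. Alternatives varied the ranking, list length, distances, windows and gene assignment.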

Additional observations from a re-analysis of the deposited data

How the results depend on the processing

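Gained sites lay at promoters more often than lost ones under each of the 8 alternatives for which promoter shares were computed, which leave out the top 20000, the 50 and 200 bp matching and the stricter q-value. Ranked by q-value, promoter shares were 4.1% of kept and 28.8% of gained sites, TTTAT was in 36.4% of gained, and HOXC9 day 4 events lay at 93% of kept and 68.4% of gained sites. With the top 5000, 55.3% of day 4 and 55.7% of day 3 events were kept, 20.2% of gained sites lay at promoters, TTTAT was in 57.4% of kept and 44.4% of gained, and HOXC9 lay at 96.1% of kept, 83.7% of gained and 71.6% of lost sites. With the top 20000, 52.9% of day 3 events were kept. At 50 bp 50.1% of either day's events were kept, and at 200 bp 55.8% of day 3 events were, with HOXC9 at 93%, 64.9% and 62.6% of kept, gained and lost sites. Counting any event of the other day, 73.1% and 74.5% were kept, promoter shares were 5.74% of kept and 60.8% of gained, TTTAT was in 53.4% and 20.3%, and HOXC9 lay at 90.6% of kept, 42.9% of gained and 49.4% of lost sites. Using promoter windows of 500 bp, promoter shares were 2.95%, 35.4% and 2.17% of kept, gained and lost sites, with 2 kb 7.4%, 41.2% and 6.19%, and with starts of all genes 7.4%, 41.9% and 5.86%. TTTAT within 25 bp was in 36.8%, 22.6% and 35.6%, and within 100 bp in 75.7%, 45.3% and 73%. The HOXC9 top 10000 lay at 55.9%, 25% and 15.6%. By gene bodies within 50 kb, 7116 genes had a gained site in place of 3374. A stricter q-value left both kept shares within their intervals.

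A pair of alternatives was chosen after seeing the data. Among top events below rank 5000, TTTAT was in 51.4% of kept and 29.3% of gained sites, 43.4% of gained sites lay at promoters, and HOXC9 lay at 85.3%, 53.4% and 58.2% of kept, gained and lost sites. Ranking events with a log2 fold of at least 3, 48.6% of day 4 and 48.9% of day 3 events were kept, promoter shares were 4.07%, 31.4% and 4.23%, TTTAT was in 35.1% of gained, and HOXC9 lay at 63.5% of gained and 63.1% of lost sites. The HOXC9 gained against lost difference over whole classes was thus negative in some settings, and its cause was not tested. No paired analysis was possible because each list pools its replicates and gives no event value per library, and the position tracks hold no reads. Leaving out a replicate could not be run for the same reason, which matters most at day 3, where 1 library gave 80.9% of the signal reads.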
